A study of Mus musculus with 32 samples.

Results

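Rab, Arf and Arl proteins are small GTPases that switch on membranes, and sorting nexins (Snx) and vacuolar protein sorting (Vps) proteins act beside them to bend membranes and sort cargo. The genes described here were all those whose symbol is Rab, Arf, Arl or Snx followed by a digit, or begins with Vps. They numbered 94 of the 9030 named genes on the array and were read by 137 of its 20794 probes. By role they were 39 Rab GTPases, 20 Vps genes, 19 sorting nexins, 5 Arl GTPases, 5 Rab partner proteins, 4 Arf GTPases and 2 Arl partner proteins. The symbol rule also takes in Vps72, known as a chromatin protein and not as a sorting factor. Rab27a, Rab28, Arl6, Arl13b and Vps35 were not analysed here.

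Each array set RNA from an organ of a mouse of the line labelled C3H sighted against RNA pooled from 6 male control mice labelled C3H.pde6b-, on the same C3H background. The series' design text calls the tested line the C3H seh mutant line and speaks of 6 male animals, with colour flips. Pde6b encodes the beta subunit of the rod phosphodiesterase, and mice without a working copy lose their rods. Whole organs were used, with 12 arrays of eye, 12 of brain and 8 of heart, and no age or treatment is given in the labels. One set of control mice gave the pools of both brain and heart, and another set gave the eye pool. How the sighted line carries its Pde6b, and which arrays share an animal, is not given in the labels. The control was therefore 1 pool per organ, and every test below leaves out the spread between control animals.

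In rods, everything that builds the outer segment is made in the inner segment and carried through a narrow connecting cilium. Rab and Arf GTPases load and target the carriers, the BBSome coat and its regulators move membrane proteins in and out of the cilium, and ARL3 releases lipid-anchored cargo from its soluble carriers. Behind the plasma membrane, Rab4, Rab5, Rab11 and their relatives run early and recycling endosomes, and the ESCRT complexes and the Vps proteins of retromer, HOPS and CORVET decide whether cargo is recycled or degraded.

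The values were log2 ratios of sighted over control RNA, in which a value of 1 means a doubling, and they carry no level of a gene within an organ. A replicate was the mean of the arrays with consecutive numbers and opposite dyes, giving 6 replicates in eye, 6 in brain and 4 in heart. P-values measure the spread between these replicates, which may be partly technical. Their precision is limited by how many arrays there were. The direction of the ratio is likely, since it was inferred from rod genes on the eye arrays, where 9 of 9 measured rod markers were higher in sighted mice with a median of 4.57, so those genes are no independent evidence. Pde6b itself was not analysed here. The share of missing values was highest on heart array 7, at 61.6%, so many heart genes rest on 3 replicates. In whole-organ RNA, fewer cells of a type and less RNA per cell cannot be told apart.

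In the eye, Arl3 and the ESCRT-I subunits Vps37c and Vps37a showed the largest rises in sighted mice, and Rab3d, Rab25 and Rab14 the largest falls among the members that passed the test. Of 92 tested members, 29 passed an adjusted p of 0.05 in limma, which is 31.5% against 26.8% of all 15874 genes tested, where each probe without a gene name counts as a gene. Of these, 17 were higher in sighted eyes (18.5%, against 15.9% of all genes) and 12 were lower (13.0%, against 11.0% of all genes). All replicates stood on the same side of 0 for 38 members (41.3%, against 30.1% of all genes). The median ratio of the 92 members was 0.01, and that of all genes was 0.03. The members as a whole were thus called at a rate near that of the array, and what follows describes single genes. Rab20 and Snx8 had too few values to be tested in eye.

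The split between higher and lower members depended on the scale of the arrays. With each array centred on its median, 17 members were higher and 21 lower (18.5% and 22.8%, against 16.0% and 15.2% of all genes). With centring and scaling 17 were higher and 20 lower (18.5% and 21.7%, against 16.3% and 15.6%). On arrays with sighted RNA in Cy5 the median of all genes was 0.27, and 39 members were higher and 4 lower (41.9% and 4.30%, against 37.2% and 3.12% of all genes). With sighted RNA in Cy3 the median was -0.22, and 3 members were higher and 21 lower (3.23% and 22.6%, against 3.39% and 20.8%). The shares of all genes shifted in the same directions. Of the 29 called members, 20 had the same sign on both orientations. Without replicate 1 and without replicate 4 the count fell to 18 members each time (19.6% and 19.4%, against 20.7% of all genes each time).

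**Figure D1:**
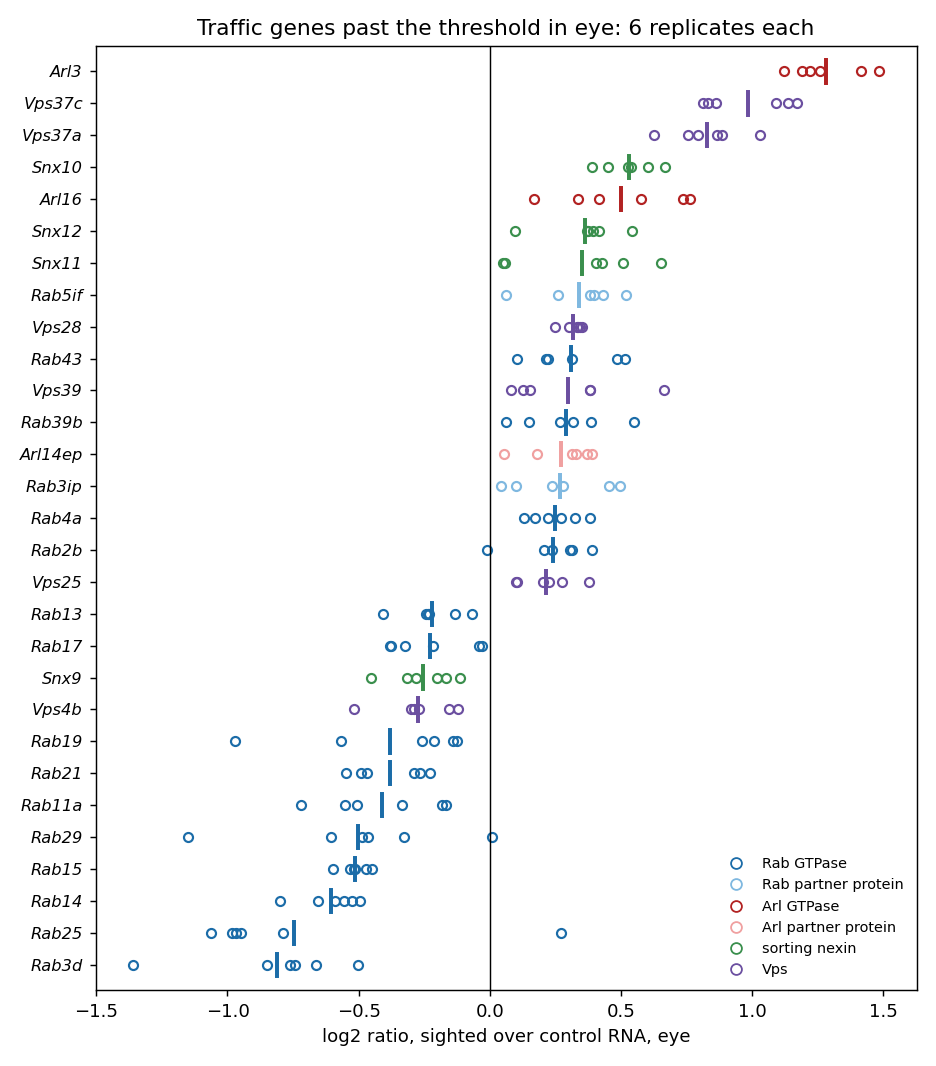
Log2 ratios of sighted over control RNA in eye (x axis) for the 29 called members, 1 line per gene, with open circles for the 6 replicates, a bar for their mean and colour for the role. The circles of Arl3 lie between 1.12 and 1.49, while Rab25 has 1 circle at 0.27 and the others between -1.06 and -0.79.

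Among the Arl genes, 2 of 5 GTPases rose in sighted eyes (40.0%, against 15.9% of all genes) and none fell (against 11.0% of all genes). Arl3, the GTPase that frees lipid-anchored proteins from their carriers at the cilium, had ratios of 1.42, 1.19, 1.49, 1.12, 1.22 and 1.26 in the 6 replicates. All lay far from 0, and their mean of 1.28 ± 0.14 (SD, n = 6) is a 2.43-fold higher ratio in sighted eyes (limma adjusted p = 5.8e-06). Arl3 was higher on both orientations, at 1.56 with sighted RNA in Cy5 and 1.00 with it in Cy3. Arl16, a less studied relative, had ratios of 0.58, 0.74, 0.76, 0.42, 0.17 and 0.34, with a mean of 0.50 ± 0.23 (limma adjusted p = 0.00430). The other Arl GTPases did not pass the test and had means between 0.02 and 0.26.

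The Arl partner proteins differed in their call. Arl14ep, named as an effector of ARL14, rose with a mean of 0.27 ± 0.13 (limma adjusted p = 0.0158), but its mean was -0.05 on the Cy3 arrays. Arl2bp, which binds ARL2 and ARL3, had ratios of 0.19, 0.19, 0.24, 0.18, 0.04 and 0.16. Its 6 replicates were all above 0, but the mean of 0.17 ± 0.07 missed the threshold (limma adjusted p = 0.0581). Its probes were unequal, 1 at 0.26 (limma adjusted p = 0.00919) and the other at 0.08.

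Among the Vps genes, 5 of 20 rose (25.0%, against 15.9% of all genes) and 1 fell (5.00%, against 11.0% of all genes). Of the 5 rises 3 were subunits of ESCRT-I, the complex that captures ubiquitin-tagged cargo at multivesicular bodies. Vps37c had ratios of 1.14, 0.81, 0.86, 0.83, 1.09 and 1.17, with a mean of 0.98 ± 0.17 and a 1.98-fold higher ratio (limma adjusted p = 4.3e-05). Vps37a had ratios of 1.03, 0.76, 0.80, 0.87, 0.63 and 0.89, with a mean of 0.83 ± 0.14 (limma adjusted p = 7.1e-05). Both of its probes were called, at 0.97 and 0.68. Their relative Vps37b, the remaining form of this subunit on the array, had a mean of 0.16 ± 0.11 and missed the threshold (limma adjusted p = 0.0922). Vps28, which holds the core of ESCRT-I together with the Vps37 subunit, had ratios of 0.34, 0.25, 0.35, 0.30, 0.35 and 0.33. All were above 0, and the mean of 0.32 ± 0.04 passed (limma adjusted p = 0.00262), with its probes at 0.45 and 0.19. The grouping of members into complexes was made after their values were seen and is a description. The count of ESCRT-I rises was 3 of 4 with the arrays centred as well, and 2 of 4 on the Cy3 arrays alone.

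Further along the same route the values were small. In ESCRT-II, Vps25 rose with a mean of 0.21 ± 0.11 (limma adjusted p = 0.0319), and Vps36 was at 0.12 (limma adjusted p = 0.146). Vps4b, an ATPase that takes ESCRT-III apart, was the only Vps gene called lower, with ratios of -0.52, -0.15, -0.29, -0.30, -0.27 and -0.12 and a mean of -0.28 ± 0.14 (limma adjusted p = 0.0176). Its close paralog Vps4a was at 0.23 and did not pass (limma adjusted p = 0.0617), and probes of near-identical paralogs may cross-hybridise. Vps39, a subunit of the HOPS tether of late endosomes and lysosomes, rose by 0.30 in the mean of both orientations but was at -0.23 on the Cy3 arrays. The other measured HOPS and CORVET subunits, Vps16, Vps33a and Vps41, lay between -0.08 and 0.10 and were not called. Of the retromer, which returns receptors from endosomes, Vps26a and Vps26b were at -0.14 and -0.04. Vps29 had ratios of 0.17, 0.29, 0.84, 0.17 and 1.24 in 5 replicates, a spread too wide for its mean of 0.54 to pass (limma adjusted p = 0.0536). The retromer-type nexins Snx1, Snx2 and Snx5 were not called either, with means between -0.24 and 0.09.

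Among the sorting nexins, 3 of 18 rose (16.7%, against 15.9% of all genes) and 1 fell (5.56%, against 11.0% of all genes). Snx10, an endosomal nexin known for its part in bone-resorbing cells, had ratios of 0.54, 0.67, 0.60, 0.45, 0.39 and 0.53, with a mean of 0.53 ± 0.10 (limma adjusted p = 4.2e-04), and its probes stood at 0.49 and 0.57. Snx12, a small relative of Snx3, had ratios of 0.38, 0.10, 0.54, 0.39, 0.42 and 0.37, and its mean of 0.37 ± 0.15 passed (limma adjusted p = 0.00534). Snx11 had ratios of 0.06, 0.05, 0.40, 0.66, 0.43 and 0.51, so replicates 1 and 2 stood near 0 and the others well above it. Snx9, which acts with dynamin in clathrin-mediated uptake, was the nexin that fell, with ratios of -0.20, -0.45, -0.32, -0.28, -0.11 and -0.17 and a mean of -0.26 ± 0.12 (limma adjusted p = 0.0194), but it was at 0.09 on the Cy5 arrays. The 14 nexins that did not pass lay between -0.25 and 0.26. The median of the nexins was 0.07, but it was 0.35 on the Cy5 arrays and -0.24 on the Cy3 arrays, against medians of all genes of 0.27 and -0.22.

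Among the 38 tested Rab GTPases 10 were called lower (26.3%, against 11.0% of all genes) and 4 higher (10.5%, against 15.9% of all genes), with a median of -0.09. With arrays centred on their median 15 of the 38 were lower and 4 of the 38 higher, where 15.2% of all genes were lower and 16.0% higher. On the Cy5 arrays alone 8 of 39 were higher and 4 lower (37.2% and 3.12% of all genes), and on the Cy3 arrays alone 14 of 39 were lower and none higher (20.8% and 3.39% of all genes). The median of the Rab GTPases lay below that of all genes on both orientations, at 0.19 against 0.27 and at -0.31 against -0.22.

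Rab3d, the form of Rab3 best known from secretory granules of exocrine cells, had ratios of -1.36, -0.76, -0.66, -0.74, -0.85 and -0.50. It was below 0 in all 6 replicates, most in replicate 1, with a mean of -0.81 ± 0.29 and a 1.76-fold lower ratio in sighted eyes (limma adjusted p = 9.0e-04). Rab25, an epithelial relative of Rab11, had ratios of -0.98, 0.27, -0.97, -1.06, -0.95 and -0.79. Replicate 2 stands apart from the others, the mean over all was -0.75 ± 0.51 (limma adjusted p = 0.0126), and without replicate 2 it was -0.95. Rab14, which works between the Golgi, early endosomes and recycling endosomes, had ratios of -0.80, -0.59, -0.49, -0.65, -0.56 and -0.53, with a mean of -0.60 ± 0.11 (limma adjusted p = 2.5e-04). Rab15, a Rab of recycling endosomes, had the tightest values among the called members that fell, at -0.52, -0.45, -0.53, -0.60, -0.51 and -0.47, and a mean of -0.51 ± 0.05 (limma adjusted p = 2.7e-04).

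Rab29, a relative of Rab32 and Rab38 tied to the Golgi and lysosomes, had ratios of -0.33, -0.49, 0.008, -0.46, -1.15 and -0.60, with replicate 3 near 0 and replicate 5 far below the rest. Rab11a, the main Rab of recycling endosomes and in frog photoreceptors a part of rhodopsin carriers, had ratios of -0.72, -0.33, -0.18, -0.55, -0.51 and -0.17. All were below 0 and the mean was -0.41 ± 0.22 (limma adjusted p = 0.00894). Rab21, a Rab of early endosomes that binds integrins, had ratios of -0.23, -0.29, -0.47, -0.27, -0.55 and -0.49 and fell (limma adjusted p = 0.00369). Its 3 probes were at -0.55, -0.38 and -0.22 (limma adjusted p = 0.0144, 0.205 and 0.570), so only 1 was called. The mean of Rab21 was -0.04 on the Cy5 arrays and -0.72 on the Cy3 arrays. Rab19 had ratios of -0.21, -0.97, -0.14, -0.26, -0.57 and -0.12, and its probes were unequal at -0.60 and -0.15. Rab17 and Rab13, both known from epithelial cells, had the smallest falls, with means of -0.23 ± 0.16 and -0.22 ± 0.12. Both means were slightly above 0 on the Cy5 arrays, at 0.03 for Rab17 and 0.05 for Rab13. A group of recycling and epithelial Rabs was drawn after its values were seen, so its count follows from how it was drawn. It leaves out Rab4a, a Rab of fast recycling that was called higher at 0.25. It also leaves out Rabs that were not called, among them Rab8a, Rab10 and Rab22a at 0.13, 0.15 and 0.0049. Rab12 and Rab35, at -0.16 and -0.13, were not called and are left out too. In the group all of Rab11a, Rab13, Rab14, Rab15, Rab17 and Rab25 were called lower, as they were with centred arrays. On the Cy5 arrays 3 of these 6 were called lower and none higher, and without replicates 1 and 2 together 3 of 6 were called lower.

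The Rab GTPases that rose had small ratios. Rab43, of the Golgi, had ratios of 0.51, 0.22, 0.31, 0.10, 0.22 and 0.48 and a mean of 0.31 ± 0.16 (limma adjusted p = 0.0145). Rab39b, found mainly in neurons, had ratios of 0.27, 0.55, 0.15, 0.39, 0.06 and 0.32. Rab4a, a Rab of fast recycling, had a mean of 0.25 ± 0.10 that joined unequal probes at 0.44 and 0.06. Rab2b, which acts between the endoplasmic reticulum and the Golgi, had a mean of 0.24 ± 0.14. Rab39b and Rab2b were at -0.02 and near 0 on the Cy3 arrays.

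Of the 5 Rab partner proteins 2 rose (40.0%, against 15.9% of all genes) and none fell (against 11.0% of all genes). With centred arrays 2 rose and 1 fell, where 16.0% of all genes rose and 15.2% fell. Rab5if, a factor named for binding Rab5, had ratios of 0.43, 0.06, 0.52, 0.40, 0.38 and 0.26, with a mean of 0.34 ± 0.16 (limma adjusted p = 0.00881). Rab3ip, also called Rabin8 and known as the exchange factor that activates Rab8 during ciliogenesis, had ratios of 0.28, 0.10, 0.50, 0.04, 0.24 and 0.46 and a mean of 0.27 ± 0.18 (limma adjusted p = 0.0332). Both were at or just below 0 on the Cy3 arrays, at -0.0043 for Rab5if and -0.06 for Rab3ip.

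**Figure D2:**
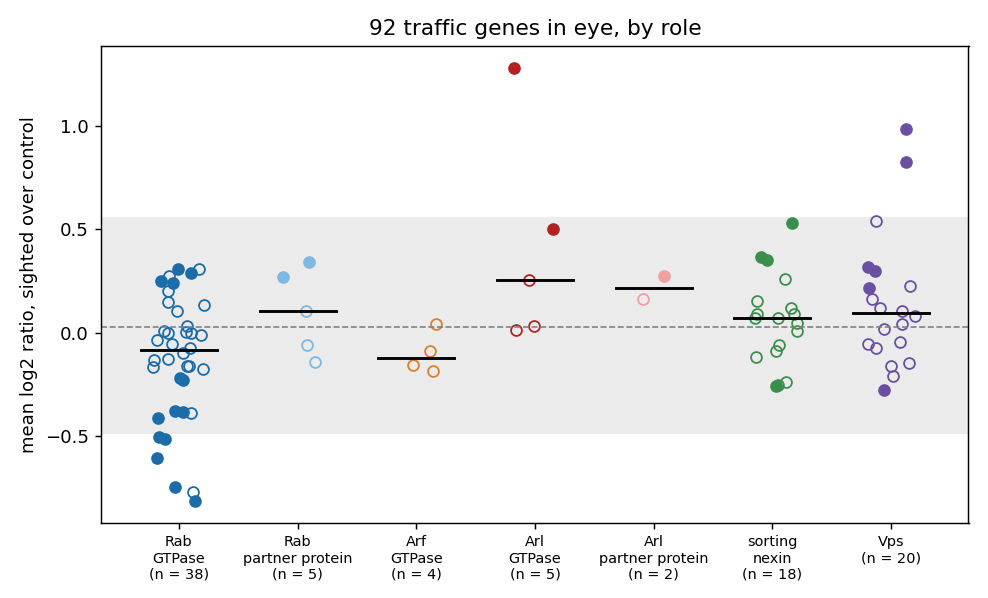
Mean log2 ratio of sighted over control RNA in eye (y axis) for the 92 tested members by role, with filled circles for called and open circles for other members, black bars for the median of a role, the dashed line for the median of all genes and the grey band for their 5th to 95th percentile (-0.48 to 0.56). Most members lie within the band, and Arl3, Vps37c and Vps37a stand above it.

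Other members known from photoreceptors or cilia were not called. Rab8a, which drives membrane into the growing cilium, was at 0.13 ± 0.12 (limma adjusted p = 0.163), and Rab3a of synaptic vesicles was at -0.17 ± 0.10 (limma adjusted p = 0.0644). Arf4, which in frog photoreceptors binds the tail of rhodopsin, had ratios of -0.20, -0.26, -0.007, -0.12, -0.34 and -0.17. It was below 0 in all 6 replicates, but its mean of -0.18 ± 0.11 missed the threshold (limma adjusted p = 0.0622). None of the 4 Arf GTPases was called in limma, against 26.8% of all genes, and 1 of them had an unadjusted p under 0.05 (25.0%, against 37.9% of all genes). Arf1, Arf2 and Arf3, which recruit coats at the Golgi, were at -0.09, 0.04 and -0.16. Rab34 missed the threshold at -0.39 ± 0.35 (limma adjusted p = 0.0512). Rab4b had a mean of -0.77 that rests on replicate 1 alone, at -4.44, while the other replicates lay between -0.11 and 0.02.

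Of 32 members with more than 1 probe tested in eye, 10 had probes of opposite sign, and the range between probes of a gene had a median of 0.11 and a maximum of 0.45. Of the 29 called members, 15 stayed called without any single replicate. The other 14 lost the call without at least 1 replicate. Rab4a lost it without replicate 1 (0.22), Arl14ep without replicate 1 or 5 (0.26 and 0.25), and Snx9 without replicate 3 or 4 (-0.24 and -0.25). Vps4b lost it without replicate 1, 4 or 5 (-0.28 to -0.23), Rab39b without 1, 4 or 6 (0.27 to 0.29) and Rab29 without 2, 4 or 6 (-0.51 to -0.48). Snx11 lost it without 3, 4, 5 or 6 (0.29 to 0.34), Rab3ip without 1, 3, 5 or 6 (0.22 to 0.28) and Vps39 without 1, 3, 4 or 5 (0.23 to 0.33). Rab17 lost it without 1, 2, 4 or 5 (-0.23 to -0.20), and Rab2b and Vps25 without 1, 3, 4, 5 or 6 (0.21 to 0.25 for Rab2b and 0.18 to 0.24 for Vps25). Rab13 lost it without 1, 2, 4, 5 or 6 (-0.24 to -0.18), and Rab19 without any of the 6 replicates (-0.43 to -0.26). These means kept their sign, and the adjusted p without a replicate was at most 0.14.

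**Figure D3:**
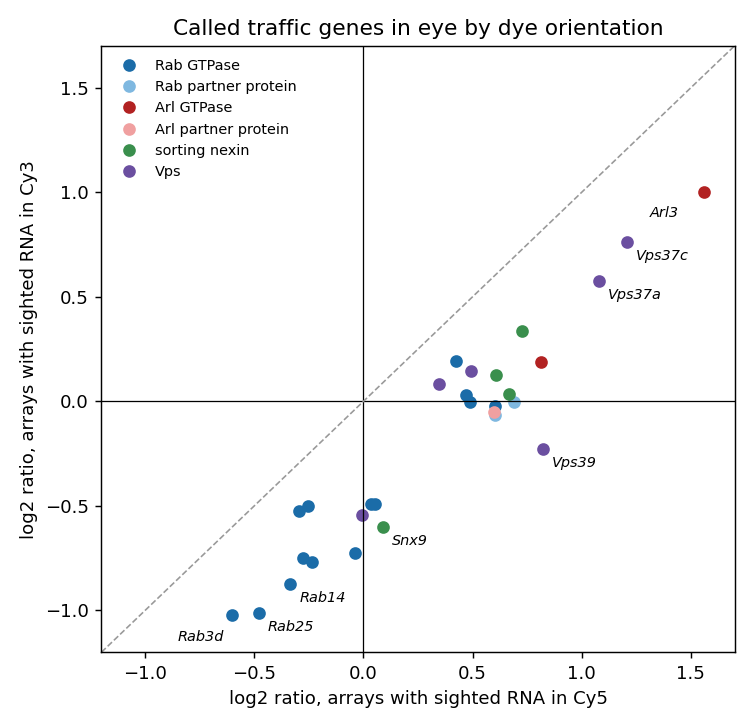
Mean log2 ratio in eye of the 29 called members on arrays with sighted RNA in Cy5 (x axis) and in Cy3 (y axis), coloured by role, with the dashed line marking equal values. Every point lies below the line, and 20 of the 29 keep 1 sign on both orientations.

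Markers of other tissues moved in the same eye arrays, where 11.0% of all genes were called lower and 15.9% higher. Of 14 measured markers of cornea and surface epithelium 13 were lower in sighted eyes, with a median of -0.96 and replicate medians between -1.49 and -0.61. Replicate 1 had the largest fall of that list and of Rab3d, and replicate 2, where Rab25 was at 0.27, had the list's smallest fall. Rab19 and Rab17, in contrast, had their largest falls in replicate 2, at -0.97 and -0.38. Of 15 skeletal muscle markers 14 were lower and 1 was higher (median -0.86), of 15 immune markers 11 were lower (median -0.46), of 7 fat markers 5 were lower (median -0.52) and of 3 blood markers all were lower (median -1.22). The part of these tissues in the falls of Rab genes, and of the rods in the rises, was not tested.

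The start regions of the 2 largest called rises and the 2 largest called falls with an entry in the RefSeq promoter table were searched because the photoreceptor factors CRX and OTX2 bind the homeobox core TAATCC, which reads GGATTA on the other strand. The 250 bases before the transcription start were taken from RefSeq on the mouse build GRCm38.p6 and searched on both strands, with capitals marking a match. Arl3 (chr19:46573183-46573432, minus strand) held none. Vps37c (chr19:10700518-10700767, plus strand) held 1 match that begins 23 bases before the start, and of its 2 starts the one with the match is shown. Rab3d (chr9:21918184-21918433, minus strand) and Rab25 (chr3:88548280-88548529, minus strand) held none.
Arl3: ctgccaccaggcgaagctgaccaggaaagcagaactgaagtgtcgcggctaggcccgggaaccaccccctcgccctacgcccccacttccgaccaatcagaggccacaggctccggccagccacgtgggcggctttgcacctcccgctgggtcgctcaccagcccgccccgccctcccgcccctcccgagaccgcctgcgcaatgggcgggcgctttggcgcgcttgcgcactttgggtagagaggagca
Vps37c: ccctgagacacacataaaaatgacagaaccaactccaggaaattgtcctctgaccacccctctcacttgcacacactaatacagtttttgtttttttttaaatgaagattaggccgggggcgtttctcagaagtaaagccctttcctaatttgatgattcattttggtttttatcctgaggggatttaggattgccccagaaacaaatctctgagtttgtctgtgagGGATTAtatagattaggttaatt
Rab3d: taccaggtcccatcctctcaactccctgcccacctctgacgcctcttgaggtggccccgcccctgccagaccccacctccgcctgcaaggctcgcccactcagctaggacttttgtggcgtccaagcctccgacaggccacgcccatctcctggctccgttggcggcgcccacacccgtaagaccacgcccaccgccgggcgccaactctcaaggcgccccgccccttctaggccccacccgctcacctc
Rab25: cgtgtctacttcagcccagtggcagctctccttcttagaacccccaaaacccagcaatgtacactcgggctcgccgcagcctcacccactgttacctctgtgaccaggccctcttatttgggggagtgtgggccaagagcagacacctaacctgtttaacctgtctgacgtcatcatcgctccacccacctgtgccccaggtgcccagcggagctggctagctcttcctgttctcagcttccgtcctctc
The table holds 13 called higher members, of which 4 held the motif at 1 or more starts, namely Vps37c, Rab43, Arl14ep and Rab3ip, against 0 of the 11 called lower members. Of all 77 tested members with an entry, 6 did (7.79%), and of 27025 genes with an entry, 7.21% did, while 6.25% of the 32851 promoters held it. Vps37c, Rab43 and Arl14ep have 2, 4 and 3 starts in the table, and a gene with more starts has more chances of a match. The motif and the genes shown were chosen with their values and the rod result known, and a match is a description of letters and not a binding site.

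Genes that work with the members were taken from 8 lists of 229 genes, of which 142 were tested in eye and 44 called (31.0%, against 26.8% of all genes), 34 higher and 10 lower. In the list of the BBSome, the coat that carries membrane proteins through the cilium, and its factors, all 6 tested genes rose, with a median of 1.15 and replicate medians between 1.02 and 1.36. Bbs5 was at 2.15 ± 0.11, Bbs9 at 2.07 ± 0.18, Bbs2 at 1.29 ± 0.20 and Bbs4 at 1.00 ± 0.20 (SD, n = 6 each). These 4 are subunits of the coat, and the list's other tested genes were Mkks, an assembly factor, and Lztfl1, a regulator. In the list of ARL3 and lipidated cargo partners, which also holds Tbcd and Tbce, 2 of 5 tested genes rose (40.0%, against 15.9% of all genes) and none fell. Unc119 and Pde6d, the carriers of myristoylated and prenylated cargo that ARL3 unloads, were at 2.86 ± 0.14 and 1.13 ± 0.11. The 6 genes of the BBSome list were called with centred arrays too, and 4 of 6 on the Cy3 arrays alone.

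The other partner lists were called at mixed rates, against 26.8% of all genes, 15.9% higher and 11.0% lower. The share was 42.3% for SNAREs and fusion factors, 32.0% for Arf regulators and effectors and 30.0% for regulators of Rab. It was below that of all genes for ESCRT partners (25.0%), Rab effectors (17.6%) and vesicle coats (16.1%). Of 26 SNAREs and fusion factors 8 rose and 3 fell, led by Stx3, the syntaxin of ribbon synapses and apical membranes, at 1.14 ± 0.30, with Vamp2 at 0.44 ± 0.07 and Sec22b at 0.51 ± 0.16. Of 20 regulators of Rab 4 rose and 2 fell, led by Rabgef1, an exchange factor for Rab5, at 0.98 ± 0.24. Of 17 Rab effectors 2 rose and 1 fell, and the one that fell was Sytl2 at -0.36 ± 0.12. Of 25 Arf regulators and effectors 6 rose and 2 fell, led by Psd, an exchange factor for Arf6, at 1.29 ± 0.45, and Gbf1, the exchange factor of the early Golgi, at 0.48 ± 0.13. With centred arrays, where 16.0% of all genes were higher and 15.2% lower, that list had 5 higher and 4 lower. Of 31 vesicle coat genes 5 rose, a share of 16.1% and so near that of all genes, and none fell. Ap1b1 led at 0.70 ± 0.13, while with centred arrays 6 rose and 2 fell. Of 12 ESCRT partners 1 rose and 2 fell, led by Chmp2b, an ESCRT-III subunit, at -0.44 ± 0.15. Whether these lists differed from each other was not tested.

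**Figure D4:**
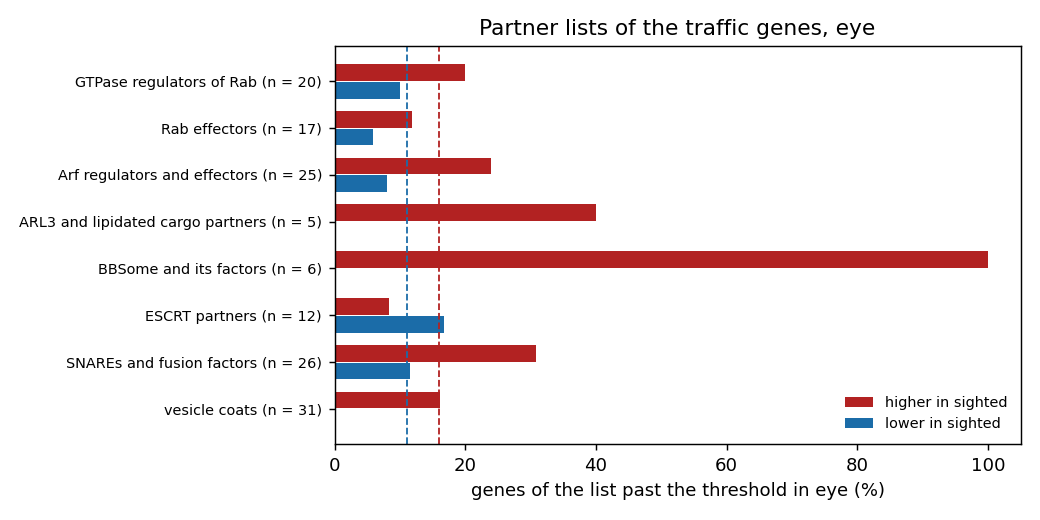
Share of the tested genes of each partner list that was called higher (red) or lower (blue) in sighted eyes, in percent on the x axis, with dashed lines at the shares of all genes, 15.9% higher and 11.0% lower. The list of the BBSome and its factors has 6 of 6 genes higher, and the coats have 5 of 31 higher and none lower.

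In the brain, the traffic genes showed no difference that passed the test. Of 90 tested members none was called in limma, against 0.00621% of 16112 genes, and 2 had an unadjusted p under 0.05 (2.22%, against 4.08% of all genes). All replicates stood on the same side of 0 for 4 members in brain (4.44%, against 3.24% of all genes). Arl3 had ratios of -0.0015, 0.09, 0.07, -0.03, -0.02 and -0.06, with a mean of 0.0081 ± 0.06, and Rab14 had ratios of -0.09, -0.0065, -0.03, 0.003, 0.07 and -0.03. Both groups of values lie around 0. The members with the smallest p were Rab34, which had ratios of 0.06, 0.21, 0.24, 0.13, 0.23 and 0.55, and Rab3c, a synaptic vesicle Rab, at 0.19 ± 0.20 (limma adjusted p = 0.959 for each). Vps4b was at 0.18 ± 0.26. On the low side stood Rab29 at -0.38 ± 0.48, Rab35 at -0.13 ± 0.13 and Vps26b at -0.11 ± 0.09, all with the same adjusted p. Arrays of 1 orientation gave 2 calls among 91 members in Cy5, both higher, against 4.45% of all genes. In Cy3 they gave 8 calls among 92 members, all lower, against 8.06% of all genes.

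In the heart, none of 75 tested members was called in limma, against 0% of 12755 genes, and 11 had an unadjusted p under 0.05 (14.7%, against 8.17% of all genes). Of the 75, 23 had every measured replicate on 1 side of 0 (30.7%, against 27.8% of all genes). Rab2a, a Rab between the endoplasmic reticulum and the Golgi, had ratios of 0.87, 0.94, 0.39 and 0.66, all above 0. Vps25 had ratios of 0.43, 0.68, 0.62 and 0.80, and Arf3 had ratios of 0.50, 0.65, 0.39 and 0.94. Snx9 had larger values, at 1.81, 0.82 and 0.55 in 3 replicates, as had Rab34 at 0.38, 1.04 and 1.53. Arf1 was at 0.42 ± 0.09 (n = 4) and Vps28 at 0.48 ± 0.24 (n = 4). On the low side Snx16 was at -0.63 ± 0.42 (n = 3), Rab19 at -0.54 ± 0.28 (n = 3) and Vps37b at -0.36 ± 0.17 (n = 4). The adjusted p was 0.568 for each of these in limma. The 19 members not tested in heart include Rab25, Rab29, Vps39, Vps4b, Snx11 and Snx12. Marker lists of other cell types had no called gene in heart, and in brain 1 of 5 pituitary hormone genes was lower.

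**Figure D5:**
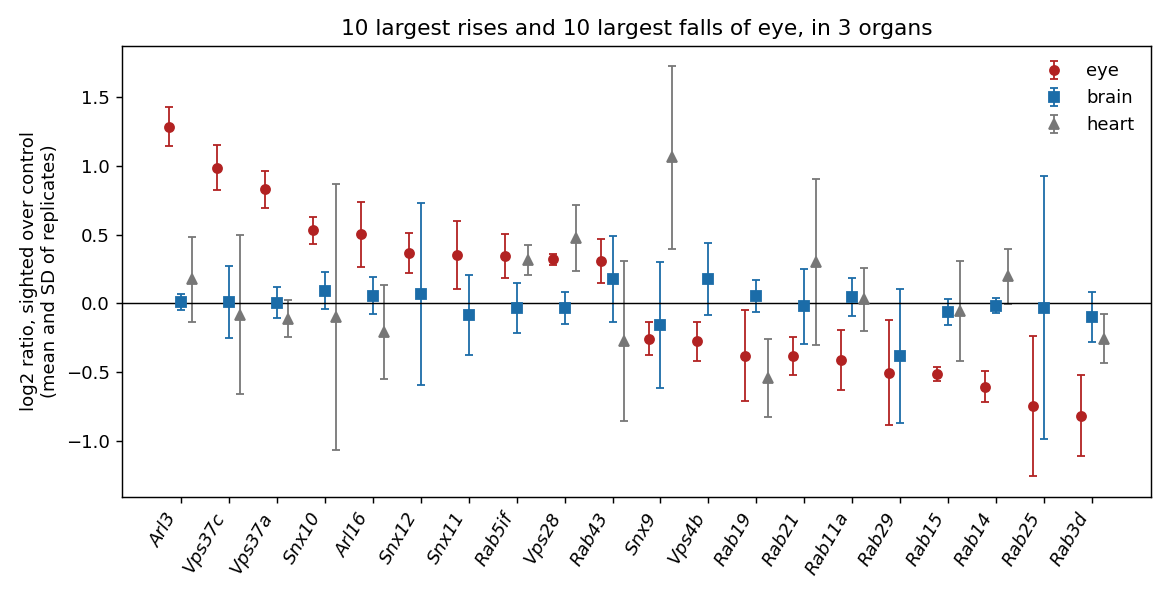
Mean log2 ratio of sighted over control RNA (y axis) of the 10 largest called rises and the 10 largest called falls of eye, in eye (circles), brain (squares) and heart (triangles), with the SD of replicates as bars. Arl3, Vps37c and Vps37a stand apart from brain, whose values lie near 0, and genes without a triangle were not tested in heart.

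Whether a ratio differed between organs was tested in 1 limma fit over 75 members and 12492 genes. Between eye and brain 10 members differed, 5 with the higher ratio in eye and 5 with the lower (13.3%, against 12.5% of all genes). Arl3 differed by 1.27 ± 0.11 (SE, limma adjusted p = 4.1e-07), Vps37a by 0.82 ± 0.09 and Vps37c by 0.97 ± 0.17. Rab14 differed by -0.59 ± 0.09 and Rab3d by -0.72 ± 0.13. With the spread of each organ on its own 16 members differed, 21.3% against 19.5% of all genes, and these 5 were among them.

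Between eye and heart 23 members differed, 8 higher and 15 lower in eye (30.7%, against 22.8% of all genes). With the spread of each organ on its own 5 did (6.67%, against 4.59% of all genes), and these were Vps37a, Arl3, Rab2a, Rab34 and Arf3. Vps37a differed by 0.94 ± 0.10, Arl3 by 1.11 ± 0.13 and Rab14 by -0.80 ± 0.11, the last with an adjusted p of 0.069 in that setting. Rab2a differed by -0.75 ± 0.12 and Rab34 by -1.37 ± 0.23. For these last the larger ratio stood in heart, where neither was called.

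Between brain and heart, whose control pools came from the same mice, 7 members differed, 1 higher and 6 lower in brain (9.33%, against 2.86% of all genes). Vps25 differed by -0.56 ± 0.10, Rab2a by -0.66 ± 0.12, Vps28 by -0.51 ± 0.11, Snx9 by -1.22 ± 0.26 and Arf1 by -0.40 ± 0.10. With the spread of each organ on its own none differed in limma (adjusted p = 0.560 for each of the 5). In that setting 11 of 75 members had an unadjusted p under 0.05 in limma, as had 1111 of 12492 genes. The heart arrays had a median SD of 0.34 between replicates over all genes, against 0.20 in brain and in eye.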

How the data were processed

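The data were 32 cDNA arrays hybridised with Cy3 and Cy5 dyes, each pairing RNA of a sighted mouse organ with the pooled control RNA of that organ. As deposited by the authors, each value is a log2 ratio of the dye channels. Its direction is not stated there, and Cy5 over Cy3 was taken as likely because rod genes then come out higher in sighted eyes. How the arrays were scanned, background-corrected and normalized is not given in the sources used here. Medians of the arrays were not all 0, and 5.88% of values were missing. Repeated ceiling values above 15, 4170 in all, were set to missing, which was decided with the values in view. Every column of the table was used.

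Ratios were turned to sighted over control by the dye labels. The label of brain array 3 names Cy5 for the sighted and the control RNA alike, and Cy5 was taken for its sighted RNA, as on the other odd arrays, and on brain array 5 the source is named only as sighted. Arrays of consecutive number and opposite dye were averaged to a replicate, then probes to a gene. A replicate needed both of its arrays, and a gene could miss 1 replicate. The labels do not say whether such arrays share an animal, and their deviations from the mean of their dye orientation correlated little (mean r = 0.0704 for eye pairs, 0.00525 for brain pairs and -0.0137 for heart pairs). The dye component of a gene, which the averaging removes, was shared between organs over 6744 genes (Spearman rho for eye with brain 0.431, eye with heart 0.394, brain with heart 0.578). Of 20794 probes 12771 had 1 gene symbol, 8023 had none and 0 had several. All 94 member symbols were found in the RefSeq gene table, and promoters came from RefSeq on GRCm38.p6.

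limma 3.58.1 in R 4.3.3 tested each organ mean against 0, two-sided, with Benjamini-Hochberg adjustment over all genes and a threshold of 0.05. Differences between organs were contrasts of 1 fit with a shared spread. The tests were tried on simulated data with known changes. Tables and figures were made with Python 3.11.15, pandas 2.3.3 and matplotlib 3.10.9.

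The members, the partner and marker lists and the tests were chosen with earlier results of these data known. The genes named with values were all called members in eye, the 3 members with the smallest p in each direction in brain and heart, at least 2 members per role, members known from retina and cilia, up to 4 called genes per partner list and up to 5 members per difference between organs. Rab4b, Vps29, Rab34, Vps37b, Arf1 and Arf2 in eye, Rab34, Snx9, Arf1 and Vps28 in heart, the group of recycling and epithelial Rabs and the grouping into complexes were picked after their values were seen. Alternatives were other ways to join arrays and probes, centring and scaling, ceiling values kept, other filters, robust moderation, 1 dye orientation, left-out replicates and a replicate block.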

Additional observations from a re-analysis of the deposited data

Results flagged for a closer look

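Dixon's test on the replicates of 67 named gene and organ groups found 5 with a replicate that stands apart, and chance gives about 1 in 20. Rab25 in eye had replicate 2 at 0.27, while the other replicates lay between -1.06 and -0.79. Rab4b in eye had replicate 1 at -4.44, against -0.11 to 0.02 in the others. Stx3 in eye had replicate 1 at 1.72, against 0.90 to 1.11 in the others. Psd in eye had replicate 4 at 0.42, against 1.22 to 1.59 in the others. Rab34 in brain had replicate 6 at 0.55, against 0.06 to 0.25 in the others.

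The ratio of sighted over control differed between eye and brain, by the limma contrast itself, for Arl3 by 1.27, for Vps37a by 0.82, for Vps37c by 0.97, for Rab14 by -0.59 and for Rab3d by -0.72. The limma adjusted p of these lay between 4.1e-07 for Arl3 and 0.00139 for Rab3d. Between eye and heart the difference was 0.94 for Vps37a, 1.11 for Arl3, -0.80 for Rab14, -0.75 for Rab2a and -1.37 for Rab34. With the spread of each organ on its own Rab14 had a limma adjusted p of 0.0692, and the other 4 kept their calls. Between brain and heart it was -0.56 for Vps25, -0.66 for Rab2a, -0.51 for Vps28, -1.22 for Snx9 and -0.40 for Arf1. None of these 5 passed limma with the spread of each organ on its own, with an adjusted p of 0.560 for each.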

How the results depend on the processing

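The eye count of 29 called members was 16 with every array on its own (17.2%, against 16.4% of all genes). Without replicates 1 and 2 together (chosen after seeing the data) it was 19 (20.7%, against 18.5% of all genes). Without 1 replicate it was 18 to 27 (19.4% to 29.3%, against 20.7% to 26.2% of all genes). It was 43 on the Cy5 arrays (46.2%, against 40.4% of all genes) and 24 on the Cy3 arrays (25.8%, against 24.2% of all genes). Brain gave 2 calls among 91 members on the Cy5 arrays (against 4.45% of all genes). On the Cy3 arrays it gave 8 among 92 (against 8.06% of all genes). It gave none in the other settings, and heart none in any setting. With the spread of each organ on its own, 10 differences between eye and brain became 16, 23 between eye and heart became 5, and 7 between brain and heart became 0. Same-numbered replicates of different organs did not deviate together (correlations between -0.05 and 0.033). Arrays averaged to 1 replicate correlated little too (mean r = 0.0704 in eye, 0.00525 in brain and -0.0137 in heart). Whether the numbers pair the samples therefore cannot be told from such correlations. With a replicate block 9, 16 and 0 of 75 members differed, against 1272, 2277 and 2 of 12492 genes. Leaving out 1 replicate gave 7 to 13, 19 to 24 and 2 to 9 members, and the shares of all genes there are not given here.

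Over all genes, the eye count of 4259 was 2654 with every array on its own and 6580 on the Cy5 arrays. The brain count of 1 was 736 on the Cy5 and 1327 on the Cy3 arrays, and 0 to 4 otherwise. The eye minus brain count of 1564 was 2438 and the eye minus heart count of 2844 was 573 with each organ's own spread. The brain minus heart count of 357 was 0 in that setting and 2 with the replicate block.

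These eye means turned sign on the Cy3 arrays: Rab5if -0.0043, Rab2b -0.0037, Rab39b -0.023, Arl14ep -0.052, Rab3ip -0.065, Arf2 -0.093, Arl2bp -0.12, Rab8a -0.16, Vps37b -0.23 and Vps39 -0.23. On the Cy5 arrays Rab17 turned to 0.034, Rab34 to 0.052, Rab13 to 0.054, Arf1 to 0.064, Rab3a to 0.065, Snx9 to 0.091, Arf3 to 0.17 and Rab4b to 0.21. In brain Vps4b was at -0.042 on the Cy3 arrays, with Rab29 at 0.26 and Vps26b at 0.12 on the Cy5 arrays. In heart Snx16 was at 0.20 and Vps37b at 0.016 on the Cy5 arrays. The cause was not tested for any of these changes.

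Of the values of named genes in eye over the alternatives, 848 kept sign and side of the threshold, 101 lost a call and 18 gained one. For the named genes between eye and brain 95 of 95 values kept the call, between eye and heart 94 did and 1 lost it, and between brain and heart 66 did and 29 lost it. Arl3, Vps37c, Vps37a, Rab14 and Rab3d were called in eye in every setting run by gene, and Rab25 in every setting that kept it. The precision is limited by 1 control pool per organ and by the number of arrays.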

Other observations

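The genes whose ratios ran most like those of Arl3 are given as a description over the 16 replicates of all 3 organs. Replicates of an organ share its control pool, and those of eye share the eye change itself. Among 6738 genes with a value in all replicates the highest Pearson correlations were those of Pkm (0.987), Hddc3 (0.981), Tma7 (0.978), Ptp4a3 (0.975) and Gnb4 (0.967). Pkm encodes the muscle form of pyruvate kinase, a glycolytic enzyme, and Gnb4 a beta subunit of heterotrimeric G proteins. In eye Pkm had a mean ratio of 0.71 and Tma7 one of 2.19, while both lay between -0.09 and 0.27 in the other organs. Of the traffic genes with a value in all replicates Vps37a came nearest, with 0.909 at rank 71, and Rab3ip followed with 0.733. Among the same genes Rab3d stood at -0.804 and Rab15 at -0.793. Members without a value in some replicate, such as Vps37c and Snx10 in heart, were not compared.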
